A study of Homo sapiens with 32 samples.

Results

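The 36 genes described here encode the enzymes of cholesterol synthesis (18 genes), fatty acid synthesis and desaturation (10 genes), the sterol sensors and SREBP transcription factors (5 genes) and sterol transport (3 genes). They were listed by symbol, with earlier results of these data known. Every row carrying 1 of these symbols was taken from all 6 count tables. All 36 were found in every table, 35 under the listed symbol and 1, SC5DL, under its current symbol SC5D, among 16603 to 57445 rows per table. Each gene was compared between treated and control libraries in each line and experiment, and the cholesterol genes were set beside the fatty acid genes.

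RNA-seq was run on 4 human prostate cancer lines, LNCaP, C4-2, 22Rv1 and PC3, in 32 libraries with 2 per group. In the knockdown experiment, each line carried an shRNA against CSN5 (shCSN5) or a scrambled shRNA (scramble). The characteristics of PC3 shCSN5 replicate 2 call it drug treated, while its title and description give shCSN5, by which it was kept. In the inhibitor experiment, LNCaP and 22Rv1 cells received CSN5i-3 at 5 µM, PC3 cells received it at 10 µM, and each had a DMSO control. For C4-2 the titles and the descriptions of the inhibitor libraries name opposite treatments: those titled C5i are described as DMSO, and those titled NT are described as CSN5i-3 at 1 µM. C4-2 is therefore given as titled C5i against titled NT, with no treatment assigned to either. LNCaP and its derivative C4-2 are androgen receptor positive lines, 22Rv1 expresses the receptor and its variants, and PC3 grows without it. COPS5 encodes CSN5, the enzyme within the COP9 signalosome that strips NEDD8 from cullin ubiquitin ligases, and CSN5i-3 is a small molecule that blocks that activity.

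Sterol and fatty acid synthesis genes are known as a co-regulated programme. When sterols are scarce, SCAP escorts the SREBP precursors from the endoplasmic reticulum to the Golgi, where proteases release the transcription factor. When sterols are plentiful, INSIG proteins hold SCAP and SREBP back. The SREBF2 product acts mainly on cholesterol genes, and the SREBF1 product mainly on fatty acid genes. In prostate cancer cells this programme is known to be raised by androgen signalling.

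Levels are given as CPM, a gene's counts over its library's total, with the total scaled by TMM, edgeR's normalization between libraries. Differences are given as log2 fold changes of the treated over the control libraries with their standard errors (SE, n = 2 libraries each). A gene is called higher or lower where the adjusted p of edgeR's quasi-likelihood test, corrected over all genes tested, is under 0.05. CPM is a scaled share of a library, so less of a transcript per cell and a change in the rest of the RNA cannot be told apart. The labels do not say that the 2 libraries of a group came from separate cultures, so the p-values speak of the spread between libraries, which may be technical. Each library held 20607109 to 50924252 counts. COPS5 was lower in every shCSN5 group, with 2.90 and 1.79 against 53.4 and 52.7 CPM in LNCaP, 10.5 and 10.4 against 130.2 and 116 CPM in C4-2, 17.3 and 16.4 against 99.7 and 115 CPM in 22Rv1 and 11.8 and 12.5 against 114 and 107 CPM in PC3 (shCSN5 libraries first). The 2 libraries of LNCaP shCSN5, of 22Rv1 CSN5i-3, of 22Rv1 DMSO and of PC3 scramble differed from each other more than those of the other groups, with a chi-square per gene of 33.9 to 71.3 against 1.72 to 21.3. The summed level of 7 luminal prostate markers was 1432 and 1436 against 5375 and 5439 CPM with CSN5i-3 and DMSO in LNCaP, 1348 and 1341 against 5144 and 5172 CPM in C4-2 titled C5i and titled NT, and 114 and 118 against 404 and 411 CPM with CSN5i-3 and DMSO in PC3, and its part in the results below was not tested. KLK2, 1 of these 7 markers, was at 0 in the PC3 inhibitor libraries. The summed level of the leukocyte markers, 3 of 6 genes in that table, was 25.3 and 24.9 against 0.356 and 0.477 CPM with CSN5i-3 and DMSO in LNCaP, most of it from the CD68 gene, and its part was not tested either.

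With shCSN5, the sterol and fatty acid genes moved in both directions, and the more frequent direction differed between the lines. The share called lower was above that of all genes in LNCaP, the share called higher was above it in C4-2 and 22Rv1, and PC3 was near it. In LNCaP, 6 of the 36 were higher and 12 lower, where 18.3% of all genes tested were higher and 17.4% lower. C4-2 had 13 higher and 5 lower, against 15.7% and 16.2% of all genes. In 22Rv1, 18 were higher and 10 lower, against 22.6% and 21.3% of all genes. PC3 gave the fewest calls, 4 higher and 1 lower, where 10.3% and 6.41% of all genes were called.

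With CSN5i-3, LNCaP had 11 members higher and 16 lower, against 26.2% and 26.5% of all genes tested. In 22Rv1, 2 were higher and 10 lower, against 11.8% and 12.2%. PC3 called 23 higher and 11 lower, against 38.5% and 38.5%. The C4-2 libraries titled C5i had 10 higher and 22 lower than those titled NT, against 37% and 37.9%. The balance was thus towards higher levels in PC3 and towards lower levels in LNCaP, 22Rv1 and C4-2 as titled. PC3 received CSN5i-3 at 10 µM and LNCaP and 22Rv1 at 5 µM. Where PC3 is set beside them, here and below, line and dose of the inhibitor cannot be told apart. With scaling to total counts instead of TMM the split of higher to lower was 7 to 18 in LNCaP with CSN5i-3. All 18238 genes tested there split 3893 to 5886. The members split 6 to 24 in C4-2 as titled, beside 4493 to 6806 of 14966 genes. In PC3 with shCSN5 they split 5 to 0, beside 1969 to 702 of 15465 genes. The median of all genes then stood at -0.10 in LNCaP with CSN5i-3 and -0.20 in C4-2 as titled. No called member turned its direction under another scaling. With a spread shared by the 8 libraries of its table, the split was 11 to 10 in 22Rv1 and 4 to 3 in PC3, both with shCSN5. All genes then split 3325 to 3108 of 15919 in 22Rv1 and 1505 to 1786 of 15465 in PC3.

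Over the 7 comparisons whose labels do not conflict, 21 of the 36 genes were called in at least 4, or 58.3%, beside 32% of all 12275 genes tested in each of the 7. All 36 were called at least once, as were 95.9% of all genes. Of the 36, 12 were called higher and never lower, 7 lower and never higher and 17 in both directions in different comparisons, or 33.3%, 19.4% and 47.2%, beside 32.9%, 31.1% and 31.9% of all genes. Counts over 8 comparisons below add C4-2 as titled C5i minus titled NT, whose sign would turn if the descriptions held in place of the titles. Of 174 calls in the 8 comparisons, 145 held under every unblocked alternative fit, and 107 also held when each library was left out in turn. Leaving out 1 library leaves 1 in its group, and in the cases given next the number of members called moved as that of all genes did. In LNCaP with shCSN5 both numbers rose without either shCSN5 library and fell without either scramble library. In PC3 with shCSN5 both fell without either shCSN5 library and rose without either scramble library. All member calls there were lost without shCSN5 replicate 2, the library with conflicting labels. Both numbers fell in C4-2 and 22Rv1 without shCSN5 replicate 1. With CSN5i-3 both fell in LNCaP without either CSN5i-3 library and rose in 22Rv1 without CSN5i-3 replicate 1.

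**Figure D1:**
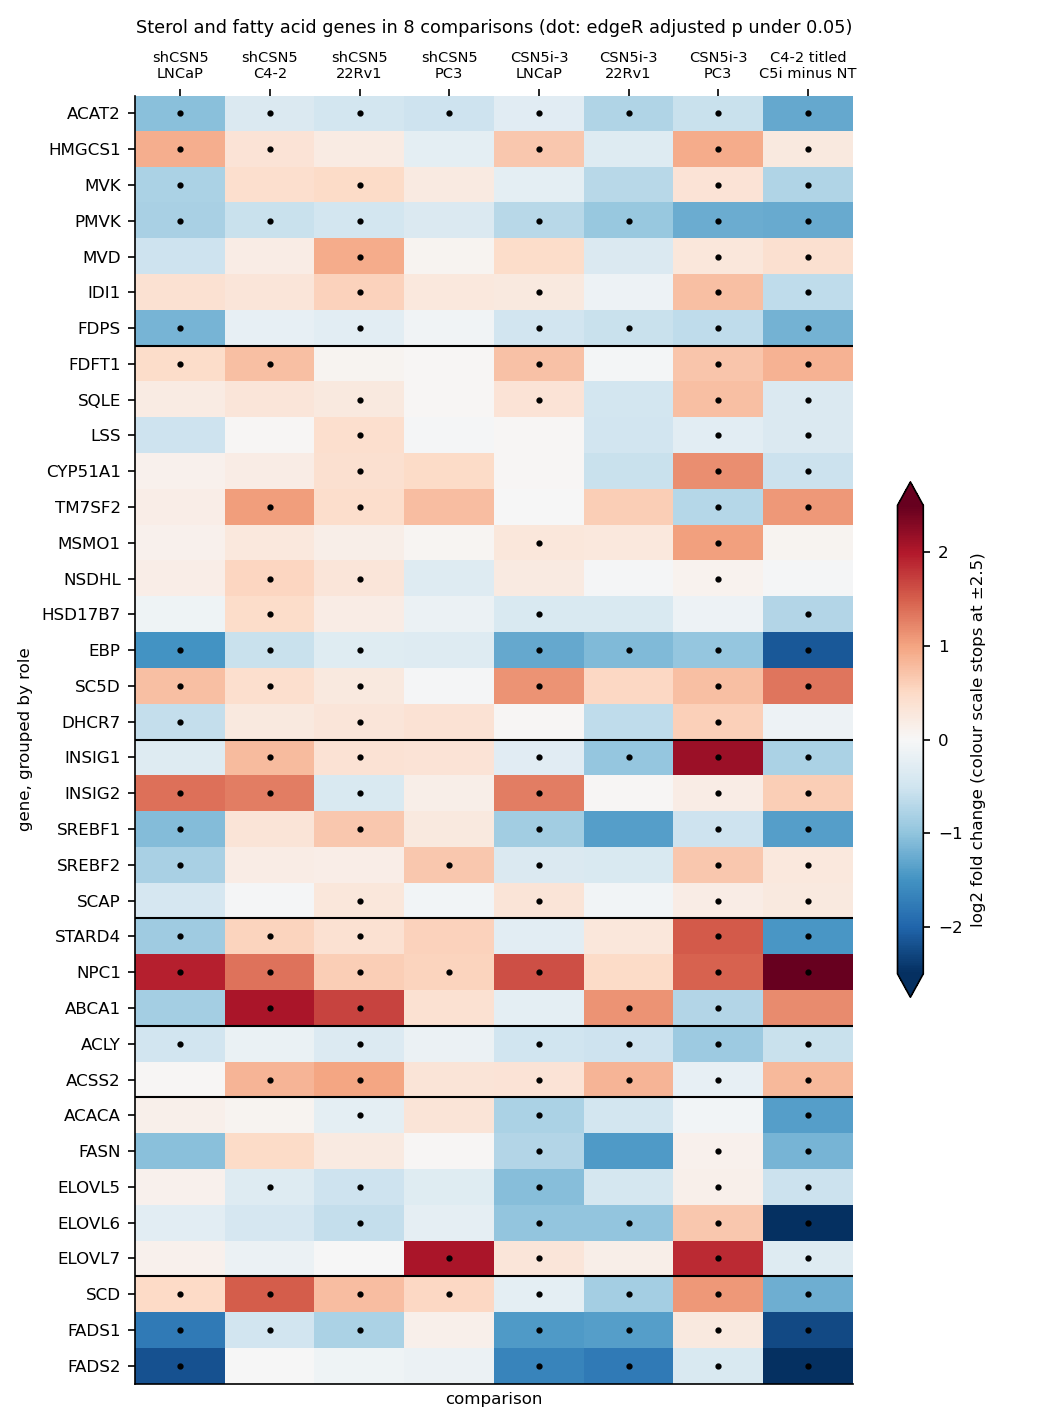
Log2 fold change of each of the 36 genes (rows, grouped by role) in the 8 comparisons (columns), with a mark where edgeR's adjusted p was under 0.05. EBP, PMVK and ACAT2 are lower in nearly every column and NPC1 is above 0 in every column, while SCD and INSIG1 change colour between columns.

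The median fold changes of cholesterol genes and fatty acid genes differed in size. Counts by class and by role stand beside the shares of all genes given above. In LNCaP with CSN5i-3, 6 of the 18 cholesterol genes were higher and 5 lower, and 2 of the 10 fatty acid genes were higher and 8 lower. The median log2 fold change was 0.03 for the cholesterol genes and -0.76 for the fatty acid genes, where the median of all genes tested was 0.0041. C4-2 as titled called 5 cholesterol genes higher and 10 lower, and 1 of the fatty acid genes higher and 9 lower, with medians of -0.36 and -1.19 beside -0.0119 for all genes. The difference of the medians, cholesterol minus fatty acid, was 0.79 in LNCaP with CSN5i-3 and 0.83 in C4-2 as titled. Within single libraries, the difference of the class medians of log2 CPM had an SD of 0.0208 and 0.0155 between the 2 libraries of a group. This SD is a spread of levels in 2 libraries per group and not of the fold changes. With 1 library left out, the difference of the median fold changes ranged from 0.78 to 0.84 in LNCaP and from 0.73 to 0.86 in C4-2 as titled.

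In 22Rv1 with CSN5i-3 both classes had medians below 0, -0.42 for cholesterol genes and -0.69 for fatty acid genes beside -0.0434 for all genes, with 0 cholesterol genes higher and 4 lower, and 1 of the fatty acid genes higher and 5 lower. In PC3 with CSN5i-3 both were above 0, 0.32 and 0.12 beside -0.0066, with 11 cholesterol genes higher and 6 lower, and 6 of the fatty acid genes higher and 3 lower. The difference of the medians was 0.27 in 22Rv1 (SD between libraries 0.158) and 0.19 in PC3 (SD 0.0158). So the cholesterol median lay above the fatty acid median in all 3 lines given the inhibitor, also with each library left out in turn.

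With shCSN5, 22Rv1 called 10 cholesterol genes higher and 4 lower, and 2 of the fatty acid genes higher and 5 lower, with medians of 0.25 and -0.18 beside 0.0199 for all genes. C4-2 called 6 cholesterol genes higher and 3 lower, and 2 of the fatty acid genes higher and 2 lower, with medians of 0.28 and -0.08 beside -0.0207. The differences were 0.42 in 22Rv1 (SD 0.148) and 0.36 in C4-2 (SD 0.163). With 1 library left out they ranged from 0.36 to 0.46 in 22Rv1 and from 0.35 to 0.40 in C4-2. LNCaP called 3 cholesterol genes higher and 6 lower, and 1 of the fatty acid genes higher and 3 lower, and its difference of 0.11 was smaller than the SD of 0.309 and was -0.37 without shCSN5 replicate 2. PC3 called 0 cholesterol genes higher and 1 lower, and 2 of the fatty acid genes higher and 0 lower, with a difference of -0.08 (SD 0.0541) that was 0.0054 without shCSN5 replicate 2. No test was made of these medians, because genes of a class are not replicates.

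**Figure D2:**
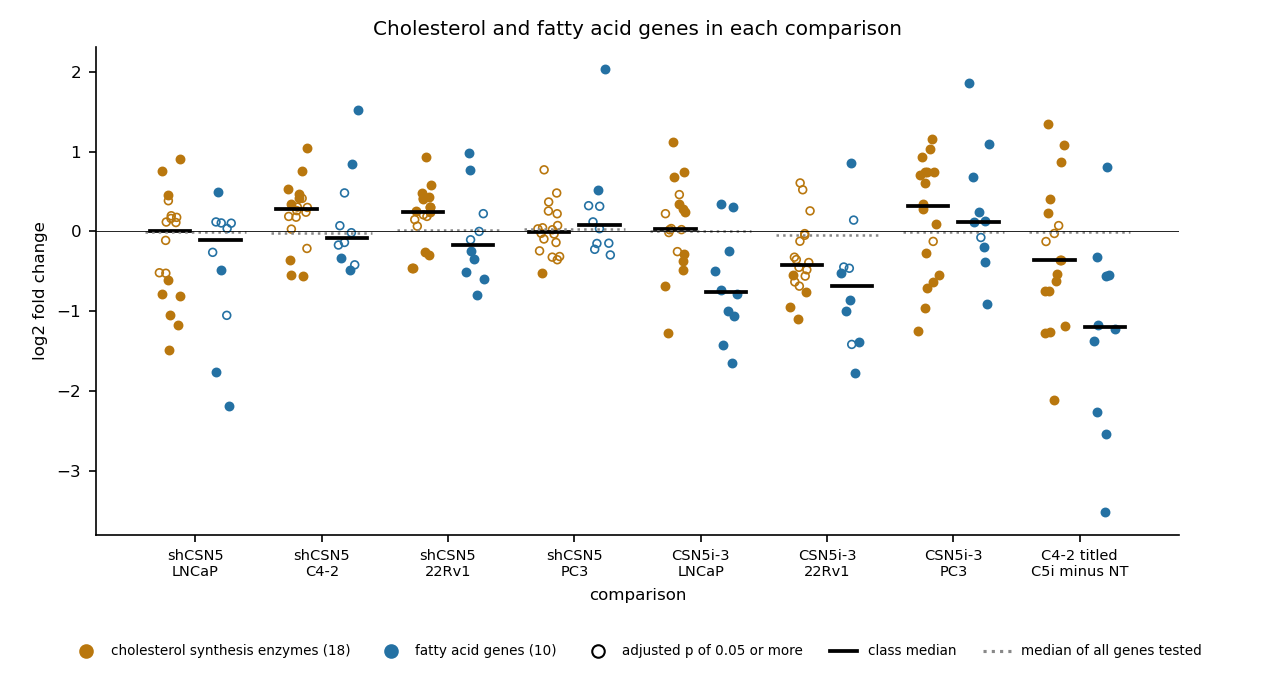
Log2 fold change of the 18 cholesterol genes and the 10 fatty acid genes (points, 1 per gene) in each comparison, with the median of each class as a line. The fatty acid median lies furthest below the cholesterol median in LNCaP with CSN5i-3 and in C4-2 as titled, with differences of 0.79 and 0.83.

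Of the 7 genes that carry acetyl-CoA to farnesyl diphosphate, ACAT2, PMVK and FDPS fell in most comparisons and HMGCS1 rose in 5. The 7 gave 1 higher and 4 lower in LNCaP, 1 and 2 in C4-2, 3 and 3 in 22Rv1 and 0 and 1 in PC3 with shCSN5. With CSN5i-3 they gave 2 higher and 3 lower in LNCaP, 0 and 3 in 22Rv1 and 4 and 3 in PC3, and C4-2 as titled gave 2 and 5.

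ACAT2, the cytosolic thiolase that condenses acetyl-CoA into acetoacetyl-CoA, was the single member called lower in all 7 comparisons with unconflicting labels, as were 1.18% of the genes tested in all 7, and it was also lower in C4-2 as titled. It had 53.1 and 40.8 CPM with shCSN5 against 97.7 and 97.0 CPM with scramble in LNCaP, and 65.6 and 67.5 against 88.9 and 81.2 CPM in C4-2. In 22Rv1 and PC3 the same order of groups gave 127 and 132 against 169.8 and 185 CPM and 50.1 and 42.2 against 67.5 and 65.0 CPM. Each shCSN5 library lay below both scramble libraries of its line. The inhibitor libraries had 48.4 and 50.9 CPM with CSN5i-3 against 62.8 and 58.6 CPM with DMSO in LNCaP, 93.2 and 103 against 173 and 158 CPM in 22Rv1 and 34.2 and 32.2 against 48.0 and 49.3 CPM in PC3. C4-2 had 31.2 and 31.5 CPM in the libraries titled C5i against 73.2 and 78.9 CPM in those titled NT. Both CSN5i-3 libraries, and both titled C5i, lay below both of the others. The log2 fold changes with shCSN5 (± SE) were -1.05 ± 0.17 in LNCaP, -0.35 ± 0.10 in C4-2, -0.46 ± 0.079 in 22Rv1 and -0.52 ± 0.13 in PC3, with edgeR adjusted p = 0.00592, 0.0328, 0.000805 and 0.0455 in that order. Those with CSN5i-3 were -0.29 ± 0.076 in LNCaP, -0.75 ± 0.14 in 22Rv1 and -0.55 ± 0.045 in PC3, and C4-2 as titled had -1.28 ± 0.088, with edgeR adjusted p = 0.0160, 0.0117, 8.52e-17 and 1.74e-07. The call of ACAT2 ended in the knockdown comparison in LNCaP without either scramble library (edgeR adjusted p = 0.0574 and 0.0581), the knockdown comparison in C4-2 without either shCSN5 library (edgeR adjusted p = 0.269 and 0.186) or scramble replicate 1 (edgeR adjusted p = 0.0704), the knockdown comparison in PC3 without either shCSN5 library (edgeR adjusted p = 0.108 and 0.332), the inhibitor comparison in LNCaP without either CSN5i-3 library (edgeR adjusted p = 0.162 and 0.0866) and the inhibitor comparison in 22Rv1 without DMSO replicate 1 (edgeR adjusted p = 0.0749). ACAT2 also lost its call in C4-2 with shCSN5 with DESeq2 (its adjusted p = 0.0518), C4-2 with shCSN5 without the filter on low counts (edgeR adjusted p = 0.0745) and PC3 with shCSN5 with total counts (edgeR adjusted p = 0.0636). ACAT2 shares exon sequence with TCP1 and SOD2 on the opposite strand, and whether the counting used strand is not given. TCP1 had log2 fold changes of -0.08, -0.15, -0.27 and -0.84 in the 4 knockdown comparisons in the same order, and -0.71, -0.31, 0.00 and -1.19 in the others; its part in the ACAT2 counts was not tested.

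PMVK, the phosphomevalonate kinase, was lower in 7 comparisons. It had 42.7 and 57.5 CPM with shCSN5 against 88.7 and 87.1 CPM with scramble in LNCaP, and 40.6 and 42.4 against 56.1 and 65.4 CPM in C4-2. In 22Rv1 and PC3 the same order of groups gave 52.1 and 48.3 against 74.5 and 64.0 CPM and 38.4 and 47.3 against 48.6 and 61.0 CPM. All shCSN5 libraries lay below the scramble libraries of their line, PC3 included, where the change did not pass the test. The inhibitor libraries had 38.3 and 34.8 CPM with CSN5i-3 against 55.7 and 62.2 CPM with DMSO in LNCaP, 45.1 and 31.2 against 60.4 and 86.4 CPM in 22Rv1 and 35.9 and 36.5 against 86.4 and 85.3 CPM in PC3. C4-2 had 31.3 and 32.8 CPM in the libraries titled C5i against 77.5 and 75.3 CPM in those titled NT. None of these groups overlapped, although the 22Rv1 libraries of each group stood well apart. With shCSN5 the log2 fold changes were -0.81 ± 0.18 in LNCaP, -0.55 ± 0.12 in C4-2, -0.46 ± 0.10 in 22Rv1 and -0.36 ± 0.17 in PC3 (edgeR adjusted p = 0.0166, 0.0113, 0.00326 and 0.195). CSN5i-3 gave -0.69 ± 0.090 in LNCaP, -0.94 ± 0.25 in 22Rv1 and -1.25 ± 0.039 in PC3, and C4-2 as titled had -1.26 ± 0.086 (edgeR adjusted p = 0.000684, 0.0407, 8.14e-36 and 1.65e-07). Leaving out 1 library ended the PMVK call in the knockdown comparison in LNCaP without either scramble library (edgeR adjusted p = 0.189 and 0.178), the knockdown comparison in C4-2 without shCSN5 replicate 1 (edgeR adjusted p = 0.0814) and the inhibitor comparison in 22Rv1 without DMSO replicate 2 (edgeR adjusted p = 0.158). PMVK also lost its call in 22Rv1 with CSN5i-3 with total counts (edgeR adjusted p = 0.0522).

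FDPS, farnesyl diphosphate synthase, supplies the precursor of squalene and of prenyl groups on proteins, and it was lower in 6 comparisons. It had 102 and 85.2 CPM with shCSN5 against 211 and 209.9 CPM with scramble in LNCaP, and 139 and 145 against 168 and 161 CPM in C4-2. In 22Rv1 and PC3 the same order of groups gave 300.4 and 319 against 365 and 376 CPM and 216 and 218 against 225 and 238 CPM. The treated libraries were lower in all 4 lines, with narrow gaps in C4-2 and PC3. The inhibitor libraries had 99.4 and 98.0 CPM with CSN5i-3 against 142 and 133 CPM with DMSO in LNCaP, 232 and 229 against 352 and 324 CPM in 22Rv1 and 127 and 127 against 195 and 198 CPM in PC3. C4-2 had 95.1 and 96.1 CPM in the libraries titled C5i against 213 and 223 CPM in those titled NT. All treated and titled C5i libraries were the lower ones. Its log2 fold changes with shCSN5 were -1.17 ± 0.14 in LNCaP, -0.21 ± 0.090 in C4-2, -0.26 ± 0.075 in 22Rv1 and -0.10 ± 0.089 in PC3 (edgeR adjusted p = 0.00204, 0.109, 0.0163 and 0.491). CSN5i-3 gave -0.48 ± 0.067 in LNCaP, -0.55 ± 0.13 in 22Rv1 and -0.63 ± 0.028 in PC3, and C4-2 as titled had -1.19 ± 0.073 (edgeR adjusted p = 0.000900, 0.0255, 2.76e-28 and 6.47e-08). For FDPS the call ended in the knockdown comparison in 22Rv1 without shCSN5 replicate 1 (edgeR adjusted p = 0.230) and the inhibitor comparison in 22Rv1 without either DMSO library (edgeR adjusted p = 0.215 and 0.0929).

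HMGCS1, the synthase that makes HMG-CoA, was higher in 5 comparisons. It had 229 and 176 CPM with shCSN5 against 109 and 107 CPM with scramble in LNCaP, 243 and 264 against 217 and 182 CPM in C4-2, 606 and 629 against 509.6 and 560.4 CPM in 22Rv1 and 60.7 and 51.4 against 71.4 and 61.4 CPM in PC3. Both shCSN5 libraries were above both scramble libraries in LNCaP, C4-2 and 22Rv1 and below them in PC3. The log2 fold changes were 0.90 ± 0.16 in LNCaP (edgeR adjusted p = 0.00789) and 0.35 ± 0.11 in C4-2 (0.0470), and the values in 22Rv1 and PC3, 0.21 and -0.24, did not pass the test. The LNCaP call ended without either scramble library and the C4-2 call without any 1 of its 4 libraries, with edgeR adjusted p up to 0.368. With CSN5i-3 the values were 0.68 ± 0.076 in LNCaP (edgeR adjusted p = 0.000344) and 0.93 ± 0.049 in PC3 (7.52e-25), and C4-2 as titled had 0.24 ± 0.093 (0.0389, lost without either titled C5i library or the first titled NT library). HMGCS1 also lost its call in C4-2 with shCSN5 without the filter on low counts (edgeR adjusted p = 0.116), C4-2 as titled with total counts (edgeR adjusted p = 0.706) and C4-2 as titled with DESeq2 (its adjusted p = 0.0567). IDI1, the isomerase of isopentenyl diphosphate, was higher in 22Rv1 with shCSN5 (0.59 ± 0.085, edgeR adjusted p = 0.000257) and in PC3 with CSN5i-3 (0.75 ± 0.054, 8.82e-19), and lower in C4-2 as titled (-0.63 ± 0.11, 0.000321). IDI1 was further called in LNCaP with CSN5i-3 (0.24 ± 0.080), a call lost without some single library or in another fit. IDI1 also lost its call in LNCaP with CSN5i-3 with total counts (edgeR adjusted p = 0.230) and LNCaP with CSN5i-3 with DESeq2 (its adjusted p = 0.0636). MVK, mevalonate kinase, was higher in 22Rv1 with shCSN5 (0.48 ± 0.12, edgeR adjusted p = 0.00825) and in PC3 with CSN5i-3 (0.35 ± 0.049, 7.03e-09), and lower in LNCaP with shCSN5 (-0.78 ± 0.23, 0.0404) and in C4-2 as titled (-0.75 ± 0.13, 0.000317). The LNCaP call of MVK ended without either scramble library (edgeR adjusted p = 0.201 and 0.270). MVK shares exon sequence with MMAB, whose log2 fold changes were -0.32 in 22Rv1 and -0.63 in LNCaP with shCSN5, 0.06 in PC3 with CSN5i-3 and -0.93 in C4-2 as titled. MVD, the decarboxylase that follows PMVK, was higher in 22Rv1 with shCSN5 (0.93 ± 0.23, edgeR adjusted p = 0.00678), with 53.9 and 38.5 against 31.2 and 17.3 CPM. In LNCaP its 2 shCSN5 libraries held 9.68 and 28.2 CPM, on both sides of the scramble values of 28 and 26.4. MVD was further called in PC3 with CSN5i-3 (0.29 ± 0.047) and C4-2 as titled (0.40 ± 0.15), though the call in C4-2 as titled did not hold without some single library or in another fit. MVD also lost its call in 22Rv1 with shCSN5 with DESeq2 (its adjusted p = 0.130), 22Rv1 with shCSN5 with the spread shared by 8 libraries (edgeR adjusted p = 0.0545) and C4-2 as titled with total counts (edgeR adjusted p = 0.212).

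The next 11 enzymes run from squalene synthase, which makes squalene, to cholesterol. More of them were higher than lower in C4-2 and 22Rv1 with shCSN5 and in LNCaP and PC3 with CSN5i-3, and fewer in C4-2 as titled. With shCSN5 they gave 2 higher and 2 lower in LNCaP, 5 and 1 in C4-2, 7 and 1 in 22Rv1, and none in PC3, where 2 had an unadjusted p under 0.05 in edgeR and DESeq2 called 1. With CSN5i-3 they gave 4 higher and 2 lower in LNCaP, 0 and 1 in 22Rv1 and 7 and 3 in PC3, and C4-2 as titled gave 3 and 5. EBP and SC5D, which act on neighbouring steps near the end of the pathway, moved in opposite directions.

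The promoter windows of EBP and SC5D are shown because these 2 genes, chosen after their values were seen, moved apart while both carry the CCAAT box that SREBP's partner factor NF-Y is known to bind. They are RefSeq windows of GRCh38.p14, read 5′ to 3′ from 250 bases before to 50 bases after the annotated start, on the plus strand at chrX:48521558-48521857 for EBP and chr11:121292521-121292820 for SC5D, which has another window not printed. Capitals mark CCAAT on the minus strand, which reads ATTGG here.
EBP: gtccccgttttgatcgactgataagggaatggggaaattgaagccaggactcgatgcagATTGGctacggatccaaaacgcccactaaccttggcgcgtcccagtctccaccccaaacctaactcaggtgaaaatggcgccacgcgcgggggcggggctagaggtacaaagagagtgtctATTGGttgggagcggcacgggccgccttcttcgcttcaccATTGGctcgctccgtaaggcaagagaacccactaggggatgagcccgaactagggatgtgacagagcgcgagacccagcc
SC5D: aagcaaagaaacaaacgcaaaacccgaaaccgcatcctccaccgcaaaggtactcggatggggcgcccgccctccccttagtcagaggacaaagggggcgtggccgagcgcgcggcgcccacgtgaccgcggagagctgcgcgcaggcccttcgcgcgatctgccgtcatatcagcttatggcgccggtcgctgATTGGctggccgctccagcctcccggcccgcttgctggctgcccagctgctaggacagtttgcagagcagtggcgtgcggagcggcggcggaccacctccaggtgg
CCAAT, searched on both strands, lies 3 times in the EBP window and once in the SC5D window. Of the 32 members with a window, 22 (68.8%) held it in at least 1 window, against 39.7% of all 27305 genes and 34.6% of all 35116 windows of that length. A match is a description of the letters and no evidence of binding.

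EBP, the sterol isomerase, was lower in 7 comparisons. It had 53.1 and 51 CPM with shCSN5 against 145 and 147 CPM with scramble in LNCaP, and 81.1 and 77.0 against 112 and 121 CPM in C4-2. In 22Rv1 and PC3 the same order of groups gave 97.1 and 99.8 against 128 and 114 CPM and 66.8 and 73.6 against 79.5 and 95.3 CPM. The shCSN5 libraries were below the scramble libraries in every line, by a wide gap in LNCaP and a narrow one in PC3. The inhibitor libraries had 27.5 and 28.5 CPM with CSN5i-3 against 68.7 and 66.9 CPM with DMSO in LNCaP, 63.3 and 52.3 against 119 and 128 CPM in 22Rv1 and 41.4 and 41.3 against 81.6 and 79.5 CPM in PC3. C4-2 had 40.9 and 44.0 CPM in the libraries titled C5i against 178 and 189 CPM in those titled NT. No treated library reached the level of its control, and no titled C5i library reached that of the titled NT libraries. On the log2 scale shCSN5 gave fold changes of -1.49 ± 0.13 in LNCaP, -0.56 ± 0.10 in C4-2, -0.30 ± 0.084 in 22Rv1 and -0.32 ± 0.13 in PC3 (edgeR adjusted p = 0.000639, 0.00479, 0.0140 and 0.146). With CSN5i-3 they came to -1.27 ± 0.074 in LNCaP, -1.10 ± 0.16 in 22Rv1 and -0.96 ± 0.038 in PC3, and C4-2 as titled had -2.12 ± 0.083 (edgeR adjusted p = 1.38e-05, 0.00497, 1.35e-30 and 1.87e-09). The one EBP call that ended was that of the knockdown comparison in 22Rv1 without shCSN5 replicate 1 (edgeR adjusted p = 0.111).

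SC5D, the sterol desaturase of the next step, was higher in 6 comparisons. It had 107 and 85.9 CPM with shCSN5 against 57.3 and 56.9 CPM with scramble in LNCaP, 164 and 172 against 134 and 117 CPM in C4-2, 124 and 124 against 96.8 and 111 CPM in 22Rv1 and 45.3 and 42 against 47.0 and 41.7 CPM in PC3. The shCSN5 libraries were above the scramble libraries in LNCaP, C4-2 and 22Rv1 and overlapped them in PC3. With the inhibitor it had 141 and 142 CPM with CSN5i-3 against 66.4 and 63.8 CPM with DMSO in LNCaP, 115 and 136 against 97.1 and 78.4 CPM in 22Rv1 and 61.3 and 60.6 against 36.5 and 36.2 CPM in PC3, and C4-2 had 83.2 and 74.9 CPM in the libraries titled C5i against 28.8 and 33.3 CPM in those titled NT. In all 4 of these pairs the first group lay above the second, although 22Rv1 did not pass the test. Knockdown gave log2 fold changes of 0.75 ± 0.16 in LNCaP, 0.41 ± 0.10 in C4-2, 0.25 ± 0.086 in 22Rv1 and -0.02 ± 0.12 in PC3 (edgeR adjusted p = 0.0137, 0.0190, 0.0341 and 0.912). With CSN5i-3 it had 1.12 ± 0.066 in LNCaP, 0.52 ± 0.17 in 22Rv1 and 0.74 ± 0.041 in PC3, and C4-2 as titled had 1.35 ± 0.10 (edgeR adjusted p = 1.46e-05, 0.0710, 6.95e-24 and 3.49e-07). Without 1 library the SC5D call was lost in the knockdown comparison in LNCaP without either scramble library (edgeR adjusted p = 0.245 and 0.258), the knockdown comparison in C4-2 without either shCSN5 library (edgeR adjusted p = 0.0706 and 0.206) or scramble replicate 2 (edgeR adjusted p = 0.0586) and the knockdown comparison in 22Rv1 without either shCSN5 library (edgeR adjusted p = 0.0693 and 0.113) or scramble replicate 1 (edgeR adjusted p = 0.0798). SC5D also lost its call in C4-2 with shCSN5 without the filter on low counts (edgeR adjusted p = 0.0544).

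FDFT1, squalene synthase, the first enzyme committed to sterols, was higher in 5 comparisons. It had 977 and 1004 CPM with shCSN5 against 612 and 565 CPM with scramble in C4-2 (0.75 ± 0.089, edgeR adjusted p = 0.000791), and 534 and 542 against 333 and 311 CPM with CSN5i-3 and DMSO in LNCaP (0.74 ± 0.060, 6.79e-05). PC3 had 62.8 and 62.6 against 37.7 and 39.6 CPM with CSN5i-3 and DMSO (0.70 ± 0.041, edgeR adjusted p = 8.49e-23), and C4-2 had 963 and 945 against 507 and 536 CPM as titled C5i and NT (0.87 ± 0.062, 2.31e-07). The groups did not overlap in these 4 comparisons. In 22Rv1 FDFT1 did not pass the test in either experiment, with 0.07 for shCSN5 and -0.05 for CSN5i-3. FDFT1 was further called in LNCaP with shCSN5 (0.46 ± 0.13). That call ended without either scramble library (edgeR adjusted p = 0.432 and 0.431). SQLE, squalene epoxidase, a rate-controlling oxygenase, was higher in PC3 with CSN5i-3 (0.75 ± 0.034, edgeR adjusted p = 9.81e-28) with 109.8 and 110.5 against 63.5 and 67.7 CPM, and lower in C4-2 as titled (-0.36 ± 0.089, 0.00320) with 29.1 and 28.4 against 36.4 and 37.7 CPM. SQLE was further called in 22Rv1 with shCSN5 (0.24 ± 0.077) and LNCaP with CSN5i-3 (0.35 ± 0.073), though the calls in 22Rv1 with shCSN5 and LNCaP with CSN5i-3 did not hold without some single library or in another fit.

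Of the 11 enzymes from squalene synthase onwards, FDFT1 and SQLE included, 7 were higher and 3 lower in PC3 with CSN5i-3, against 38.5% and 38.5% of all genes. CYP51A1, the lanosterol demethylase, had 8.84 and 8.61 CPM with CSN5i-3 against 3.79 and 4.04 CPM with DMSO (1.16 ± 0.10, edgeR adjusted p = 2.42e-15), and MSMO1, the methylsterol oxidase, had 39.2 and 40.3 against 19.3 and 19.6 CPM (1.03 ± 0.051, 4.16e-26). DHCR7, the last reductase, had 147 and 154 against 101 and 97.4 CPM there (0.60 ± 0.031, edgeR adjusted p = 1.65e-25). None of these 3 groups overlapped. In the same comparison TM7SF2, a sterol reductase, was lower, with 42.3 and 41.6 against 68.9 and 68.3 CPM (-0.71 ± 0.039, edgeR adjusted p = 6.97e-24), and LSS, lanosterol synthase, was lower by a small step (-0.27 ± 0.033, 8.69e-11). TM7SF2 was higher in C4-2 as titled (1.08 ± 0.095, edgeR adjusted p = 1.29e-06), as was VPS51, which shares exon sequence with it on the same strand, at 0.80, against -0.27 in PC3 with CSN5i-3. HSD17B7, a keto reductase, was lower in LNCaP with CSN5i-3 (-0.37 ± 0.083, edgeR adjusted p = 0.00793, lost without either CSN5i-3 library, with edgeR adjusted p of 0.0735 and 0.0693) and in C4-2 as titled (-0.74 ± 0.11, 0.000121); its near-identical copy HSD17B7P2 stood at 0.95 and 1.75, and the split of reads between the copies is uncertain. NSDHL, the decarboxylating dehydrogenase, was called higher in 3 comparisons, none of which held with every library left out in turn. CYP51A1 was further called in 22Rv1 with shCSN5 (0.40 ± 0.14) and C4-2 as titled (-0.54 ± 0.077), though the call in 22Rv1 with shCSN5 did not hold without some single library or in another fit. MSMO1 was further called in LNCaP with CSN5i-3 (0.28 ± 0.084), a call lost without some single library or in another fit. DHCR7 was further called in LNCaP with shCSN5 (-0.60 ± 0.15) and 22Rv1 with shCSN5 (0.30 ± 0.093), though the calls in LNCaP with shCSN5 and 22Rv1 with shCSN5 did not hold without some single library or in another fit. TM7SF2 was further called in C4-2 with shCSN5 (1.05 ± 0.18) and 22Rv1 with shCSN5 (0.43 ± 0.13), though the calls in C4-2 with shCSN5 and 22Rv1 with shCSN5 did not hold without some single library or in another fit. LSS was further called in 22Rv1 with shCSN5 (0.41 ± 0.12) and C4-2 as titled (-0.36 ± 0.090), though the calls in 22Rv1 with shCSN5 and C4-2 as titled did not hold without some single library or in another fit. HSD17B7 was further called in C4-2 with shCSN5 (0.47 ± 0.15), a call lost without some single library or in another fit.

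The plot by library shows genes that kept 1 direction and genes that did not.

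**Figure D3:**
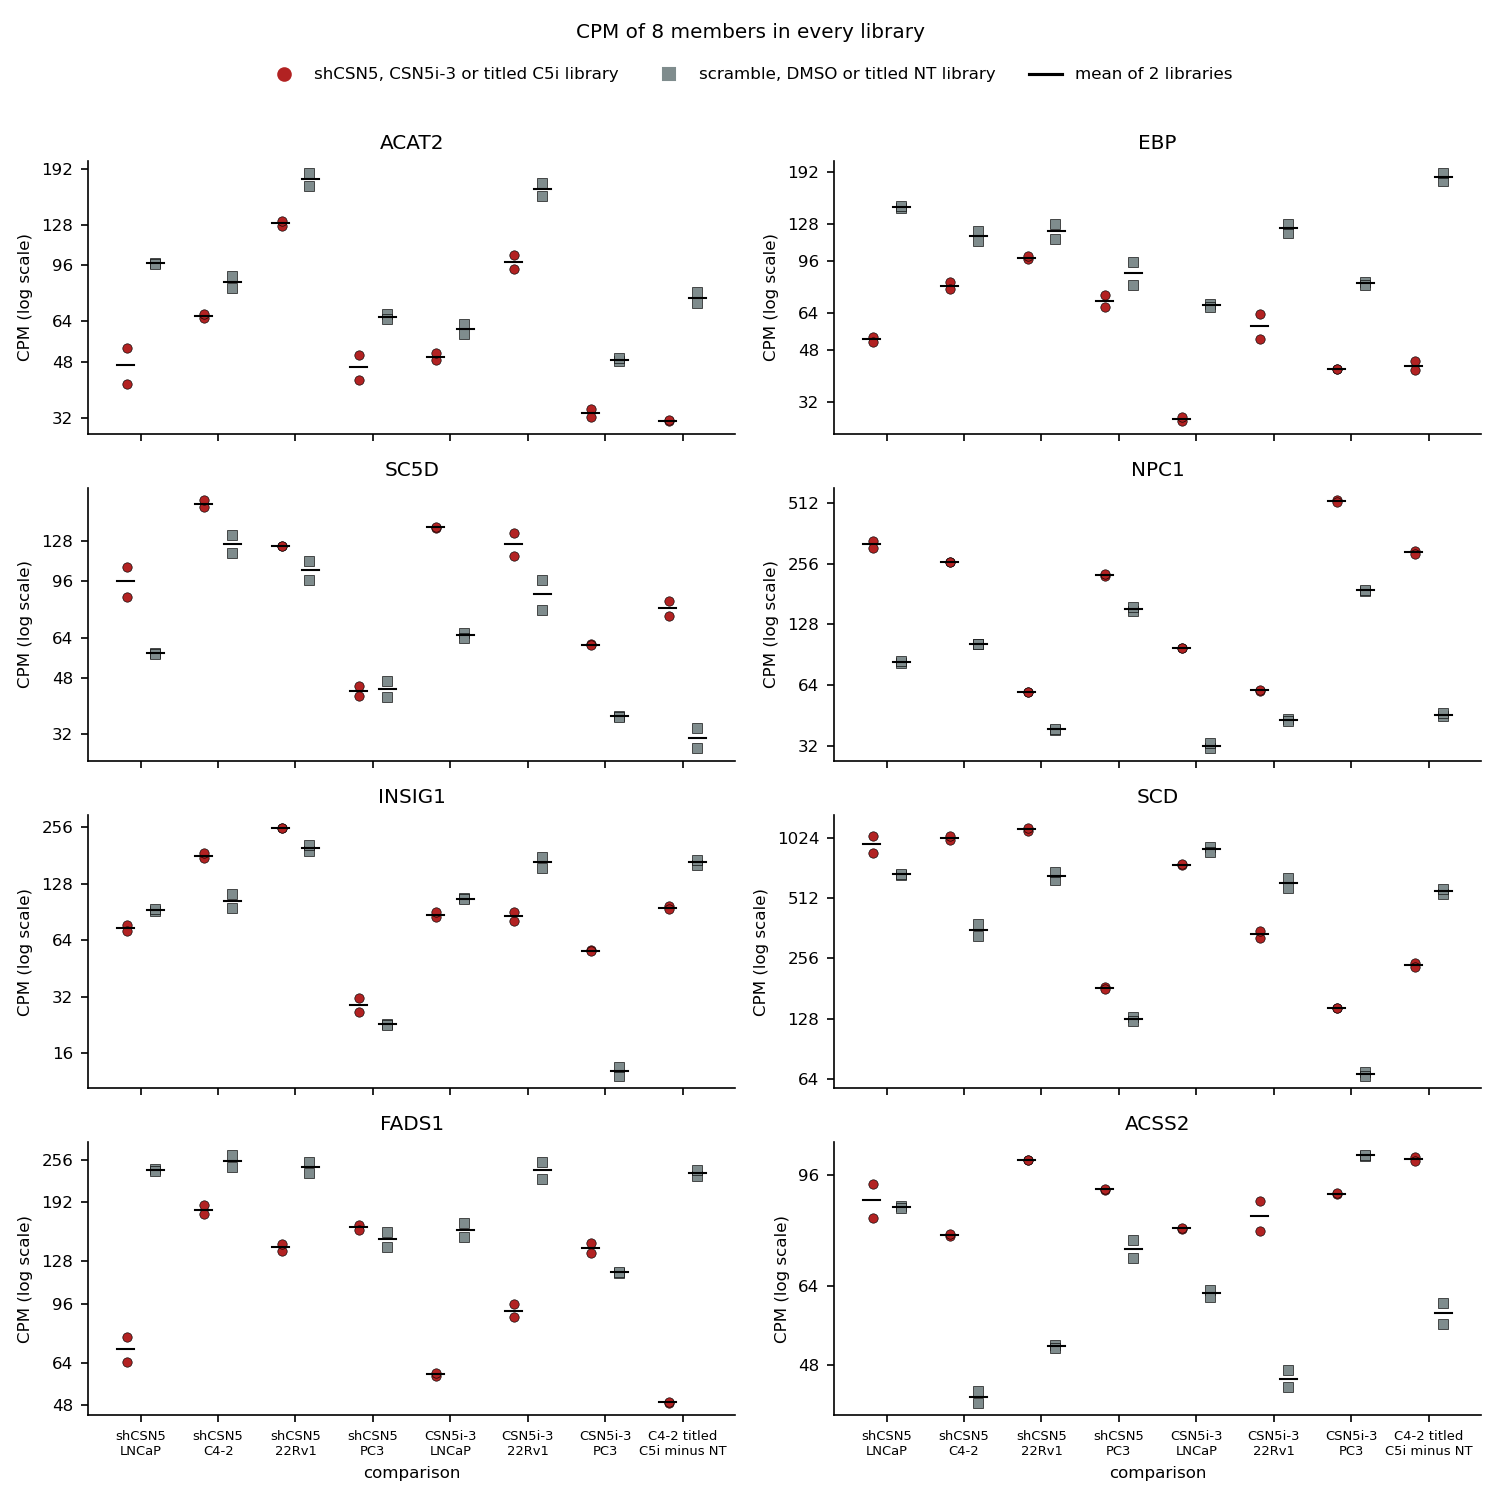
CPM of ACAT2, EBP, SC5D, NPC1, INSIG1, SCD, FADS1 and ACSS2 in every library (points) of the 8 comparisons, on a log axis. Treated libraries are left of their controls and titled C5i libraries left of titled NT libraries. The 2 libraries of a group lie close for NPC1, and the treated or titled C5i points are below the others for ACAT2 in all 8 pairs.

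Among the sensors and SREBP factors, INSIG1 and INSIG2 changed in 6 comparisons each, and both changed sign between lines. INSIG1 holds the SCAP and SREBP complex in the endoplasmic reticulum and is itself a textbook SREBP target. It had 77.4 and 71.6 CPM with shCSN5 against 92.0 and 93.7 CPM with scramble in LNCaP, 175 and 185 against 113 and 95.1 CPM in C4-2, 255 and 252 against 189.8 and 206 CPM in 22Rv1 and 31.6 and 26.5 against 22.9 and 22.7 CPM in PC3. The shCSN5 libraries were below their controls in LNCaP and above them in the other lines. In the inhibitor experiment it had 84.9 and 90.0 CPM with CSN5i-3 against 108 and 106 CPM with DMSO in LNCaP, 81.4 and 89.9 against 177 and 156 CPM in 22Rv1 and 56.5 and 55.8 against 12.2 and 13.5 CPM in PC3, and C4-2 had 97.2 and 93.6 CPM in the libraries titled C5i against 160.4 and 172 CPM in those titled NT. PC3 was the one line with higher INSIG1 after CSN5i-3, and LNCaP and 22Rv1 were lower. For shCSN5 the log2 fold changes came to -0.32 ± 0.13 in LNCaP, 0.79 ± 0.11 in C4-2, 0.36 ± 0.076 in 22Rv1 and 0.35 ± 0.14 in PC3 (edgeR adjusted p = 0.102, 0.00166, 0.00303 and 0.142). With CSN5i-3 they were -0.29 ± 0.068 in LNCaP, -0.96 ± 0.14 in 22Rv1 and 2.13 ± 0.053 in PC3, and C4-2 as titled had -0.80 ± 0.076 (edgeR adjusted p = 0.0105, 0.00576, 1.04e-40 and 2.60e-06). The INSIG1 call ended in the inhibitor comparison in LNCaP without either CSN5i-3 library (edgeR adjusted p = 0.151 and 0.0720).

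INSIG2, the paralogue with the same role that is not a strong SREBP target, had 38.4 and 32.2 CPM with shCSN5 against 14.1 and 12.9 CPM with scramble in LNCaP, 39.4 and 43.9 against 18.8 and 15.7 CPM in C4-2, 12.4 and 11.8 against 15.8 and 15.9 CPM in 22Rv1 and 39.8 and 32 against 35.0 and 29.5 CPM in PC3. It was well above scramble in LNCaP and C4-2, below it in 22Rv1, and overlapped it in PC3. With the inhibitor it had 55.3 and 58.0 CPM with CSN5i-3 against 25.2 and 21.3 CPM with DMSO in LNCaP, 13.6 and 15.6 against 15.4 and 13.2 CPM in 22Rv1 and 25.4 and 28 against 23.5 and 23.2 CPM in PC3, and C4-2 had 15.8 and 15.5 CPM in the libraries titled C5i against 9.58 and 10.9 CPM in those titled NT. Only the 22Rv1 groups overlapped among these 4 pairs. The log2 fold changes with shCSN5 were 1.39 ± 0.17 in LNCaP, 1.27 ± 0.14 in C4-2, -0.39 ± 0.13 in 22Rv1 and 0.15 ± 0.16 in PC3 (edgeR adjusted p = 0.00232, 0.000643, 0.0301 and 0.549). CSN5i-3 gave 1.29 ± 0.10 in LNCaP, 0.03 ± 0.19 in 22Rv1 and 0.19 ± 0.055 in PC3, and C4-2 as titled had 0.61 ± 0.11 (edgeR adjusted p = 5.47e-05, 0.934, 0.00168 and 0.000481). The INSIG2 call was lost without 1 library in the knockdown comparison in 22Rv1 without either shCSN5 library (edgeR adjusted p = 0.162 and 0.190) and the inhibitor comparison in PC3 without CSN5i-3 replicate 2 (edgeR adjusted p = 0.0657). INSIG2 also lost its call in 22Rv1 with shCSN5 with total counts (edgeR adjusted p = 0.0552) and 22Rv1 with shCSN5 with DESeq2 (its adjusted p = 0.105).

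SREBF2, the factor for cholesterol genes, is shown with its own promoter because its window holds the sterol regulatory element core TCACNCCAC, searched on both strands. It is the 1 member of 32 (3.12%) to do so, against 379 of all 27305 genes (1.39%) and 396 of all 35116 windows (1.13%). The window is the RefSeq GRCh38.p14 plus strand at chr22:41832855-41833154. Capitals mark that element, read as TCACCCCAC, and a CCAAT box on the minus strand, read as ATTGG.
SREBF2: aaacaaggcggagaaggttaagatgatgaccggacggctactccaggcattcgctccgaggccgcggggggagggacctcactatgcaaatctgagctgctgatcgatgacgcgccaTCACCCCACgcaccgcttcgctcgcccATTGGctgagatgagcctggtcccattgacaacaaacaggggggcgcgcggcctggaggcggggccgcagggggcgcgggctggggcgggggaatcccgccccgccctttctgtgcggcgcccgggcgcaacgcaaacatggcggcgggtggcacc
SREBF2 had 247 and 292 CPM with shCSN5 against 471 and 472 CPM with scramble in LNCaP (-0.81 ± 0.13, edgeR adjusted p = 0.00566) and 72.0 and 82.6 against 42.4 and 54.5 CPM in PC3 (0.68 ± 0.16, 0.0422). The 2 lines went in opposite directions and neither pair of groups overlapped. The LNCaP call ended without either scramble library (edgeR adjusted p = 0.0834 and 0.0908) and the PC3 call without shCSN5 replicate 2 (0.163). With CSN5i-3 SREBF2 had 360.0 and 357 against 439.9 and 479.9 CPM in LNCaP (-0.36 ± 0.063, edgeR adjusted p = 0.00274) and 96.1 and 106 against 64.9 and 61.4 CPM in PC3 (0.68 ± 0.037, 6.58e-24), the same signs as with shCSN5. The LNCaP call there ended without CSN5i-3 replicate 2 (edgeR adjusted p = 0.0502). SREBF2 was further called in C4-2 as titled (0.27 ± 0.069), a call lost without some single library or in another fit. SREBF2 also lost its call in C4-2 as titled with total counts (edgeR adjusted p = 0.309).

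SREBF1, the factor for fatty acid genes, was lower with CSN5i-3 in LNCaP (137 and 126 against 198 and 281 CPM, -0.87 ± 0.15, edgeR adjusted p = 0.00262) and PC3 (42.9 and 42.3 against 62.7 and 58.6 CPM, -0.51 ± 0.041, 6.48e-17), and in C4-2 as titled (90.2 and 102 against 287 and 214 CPM, -1.38 ± 0.12, 1.43e-06). In 22Rv1 with CSN5i-3 it had 79.4 and 34.8 against 109.5 and 187 CPM, which did not overlap but did not pass the test (-1.37 ± 0.42, edgeR adjusted p = 0.0592). With shCSN5 it was lower in LNCaP, where the libraries held 95.3 and 202 against 317 and 315 CPM (-1.09 ± 0.33, edgeR adjusted p = 0.0435), and higher in 22Rv1 (159.7 and 126 against 105 and 74.3 CPM, 0.67 ± 0.15, 0.00406). The 2 LNCaP shCSN5 libraries differed widely from each other, although both were below scramble. No call of SREBF1 ended when 1 library was left out. SREBF1 lost its call in LNCaP with shCSN5 with total counts (edgeR adjusted p = 0.0587), 22Rv1 with shCSN5 with DESeq2 (its adjusted p = 0.0776) and 22Rv1 with shCSN5 with the spread shared by 8 libraries (edgeR adjusted p = 0.0626). SCAP, the escort protein, had its largest change, -0.41 in LNCaP with shCSN5, short of the test, and was called higher in 4, of which 1 held with every library left out in turn.

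Of the 3 transport genes, NPC1, which exports cholesterol from lysosomes, rose in 7 comparisons and was above its control in the other. It had 332 and 306 CPM with shCSN5 against 82.4 and 84.2 CPM with scramble in LNCaP, 259.7 and 260.3 against 102 and 102 CPM in C4-2, 59.1 and 58.9 against 38.4 and 38.6 CPM in 22Rv1 and 222 and 227 against 148 and 157 CPM in PC3. No shCSN5 library overlapped a scramble library of its line. The inhibitor libraries had 97.3 and 98.0 CPM with CSN5i-3 against 31.0 and 32.9 CPM with DMSO in LNCaP, 59.6 and 60.6 against 43.6 and 42.4 CPM in 22Rv1 and 528 and 521 against 188 and 189.9 CPM in PC3, and C4-2 had 297 and 285 CPM in the libraries titled C5i against 44.6 and 46.3 CPM in those titled NT. The first group lay above the second in each pair, with little spread within groups, although 22Rv1 did not pass the test. On the log2 scale shCSN5 gave fold changes of 1.94 ± 0.12 in LNCaP, 1.35 ± 0.088 in C4-2, 0.62 ± 0.090 in 22Rv1 and 0.56 ± 0.090 in PC3 (edgeR adjusted p = 0.000251, 9.02e-05, 0.000255 and 0.0184). With CSN5i-3 they came to 1.61 ± 0.073 in LNCaP, 0.48 ± 0.15 in 22Rv1 and 1.47 ± 0.025 in PC3, and C4-2 as titled had 2.68 ± 0.076 (edgeR adjusted p = 4.55e-06, 0.0589, 3.56e-49 and 1.90e-10). The NPC1 call ended in the knockdown comparison in PC3 without either shCSN5 library (edgeR adjusted p = 0.101 and 0.121). NPC1 shares exon sequence with RMC1, whose log2 fold changes were 0.86, 0.11, 0.32 and 0.08 with shCSN5 in LNCaP, C4-2, 22Rv1 and PC3, and 0.83, 0.35, 1.04 and 0.61 in the others, in the order above. Its part in the NPC1 counts was not tested.

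STARD4, a cytosolic carrier of sterols, had 24.3 and 23.6 CPM with CSN5i-3 against 8.02 and 8.63 CPM with DMSO in PC3 (1.53 ± 0.069, edgeR adjusted p = 5.60e-28), and 1.39 and 1.06 against 3.28 and 3.49 CPM in C4-2 titled C5i and NT (-1.46 ± 0.22, 0.000104). The groups did not overlap, and the 2 comparisons differ in sign. With shCSN5 it was lower in LNCaP (-0.89 ± 0.21, edgeR adjusted p = 0.0227, lost without either scramble library at 0.130 and 0.151) and higher in 22Rv1 (0.38 ± 0.078, 0.00233) and C4-2 (0.56 ± 0.13, 0.0144, lost without either shCSN5 library at 0.102 and 0.159). ABCA1, which exports cholesterol to lipoproteins, had 10.6 and 10.3 CPM with shCSN5 against 3.02 and 3.45 CPM with scramble in 22Rv1 (1.69 ± 0.16, edgeR adjusted p = 1.10e-05) and 1.39 and 1.27 against 0.309 and 0.335 CPM in C4-2 (2.03 ± 0.31, 0.00257). The C4-2 values rest on 36 and 33 counts with shCSN5 and on 8 and 8 with scramble. In PC3 with CSN5i-3 ABCA1 was lower, with 3.36 and 3.50 against 5.33 and 6.01 CPM (-0.72 ± 0.12, edgeR adjusted p = 2.89e-07), and in 22Rv1 with CSN5i-3 it was higher, with 4.20 and 4.65 against 2.53 and 1.55 CPM (1.11 ± 0.28, 0.0314, lost at 0.148 without DMSO replicate 2).

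Of the 10 fatty acid genes, 8 were lower in LNCaP and 5 in 22Rv1 with CSN5i-3 and 9 in C4-2 as titled, against 26.5%, 12.2% and 37.9% of all genes. In PC3 with CSN5i-3, 6 were higher and 3 lower, against 38.5% and 38.5%. Cytosolic acetyl-CoA comes from citrate through ACLY and from acetate through ACSS2, and these genes were called in opposite directions in 22Rv1 with shCSN5, in LNCaP and 22Rv1 with CSN5i-3 and in C4-2 as titled. ACLY had 602 and 626 CPM with shCSN5 against 863 and 854 CPM with scramble in LNCaP, 504 and 489 against 549 and 568 CPM in C4-2, 406 and 392 against 515 and 495 CPM in 22Rv1 and 254 and 278 against 277 and 313 CPM in PC3. The shCSN5 libraries were lower in LNCaP, C4-2 and 22Rv1 and overlapped in PC3. With the inhibitor it had 347 and 346 CPM with CSN5i-3 against 489 and 486 CPM with DMSO in LNCaP, 442 and 372 against 567 and 604 CPM in 22Rv1 and 107 and 108 against 202 and 201 CPM in PC3, and C4-2 had 509 and 507 CPM in the libraries titled C5i against 747 and 753 CPM in those titled NT. None of these groups overlapped. Knockdown gave log2 fold changes of -0.48 ± 0.11 in LNCaP, -0.17 ± 0.085 in C4-2, -0.34 ± 0.075 in 22Rv1 and -0.15 ± 0.11 in PC3 (edgeR adjusted p = 0.0160, 0.164, 0.00359 and 0.368). With CSN5i-3 it had -0.49 ± 0.053 in LNCaP, -0.53 ± 0.14 in 22Rv1 and -0.91 ± 0.029 in PC3, and C4-2 as titled had -0.56 ± 0.060 (edgeR adjusted p = 0.000275, 0.0431, 1.50e-35 and 6.33e-06). The ACLY call ended in the knockdown comparison in LNCaP without either scramble library (edgeR adjusted p = 0.354 and 0.344) and the inhibitor comparison in 22Rv1 without CSN5i-3 replicate 2 (edgeR adjusted p = 0.0754) or either DMSO library (edgeR adjusted p = 0.123 and 0.223). ACLY also lost its call in 22Rv1 with CSN5i-3 with DESeq2 (its adjusted p = 0.0504).

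ACSS2 had 92.7 and 82.0 CPM with shCSN5 against 85.6 and 84.9 CPM with scramble in LNCaP, 76.7 and 77.4 against 41.9 and 43.7 CPM in C4-2, 101 and 101 against 51.7 and 51.1 CPM in 22Rv1 and 90.8 and 91.1 against 70.7 and 75.6 CPM in PC3. It overlapped in LNCaP and was higher with shCSN5 in the other lines. With the inhibitor it had 78.8 and 79.1 CPM with CSN5i-3 against 63.1 and 61.6 CPM with DMSO in LNCaP, 87.2 and 78.1 against 47.1 and 44.2 CPM in 22Rv1 and 89.4 and 89.7 against 103 and 103 CPM in PC3, and C4-2 had 102 and 101 CPM in the libraries titled C5i against 55.7 and 60.2 CPM in those titled NT. PC3 was the one pair with the first group lower. For shCSN5 the log2 fold changes came to 0.04 ± 0.13 in LNCaP, 0.85 ± 0.10 in C4-2, 0.98 ± 0.081 in 22Rv1 and 0.31 ± 0.10 in PC3 (edgeR adjusted p = 0.853, 0.000868, 4.14e-06 and 0.0784). With CSN5i-3 they were 0.34 ± 0.068 in LNCaP, 0.86 ± 0.15 in 22Rv1 and -0.20 ± 0.032 in PC3, and C4-2 as titled had 0.81 ± 0.082 (edgeR adjusted p = 0.00469, 0.0102, 1.05e-07 and 4.18e-06). One or more left-out libraries ended the ACSS2 call in the inhibitor comparison in LNCaP without either CSN5i-3 library (edgeR adjusted p = 0.0756 and 0.0803) and the inhibitor comparison in 22Rv1 without DMSO replicate 2 (edgeR adjusted p = 0.0593).

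The 5 genes of chain synthesis and elongation gave no call in LNCaP (0 at an unadjusted p under 0.05 in edgeR, 0 by DESeq2), 1 lower in C4-2, 3 lower in 22Rv1 and 1 higher in PC3 with shCSN5. With CSN5i-3 they gave 1 higher and 4 lower in LNCaP, 0 and 1 in 22Rv1 and 4 and 0 in PC3, and all 5 were lower in C4-2 as titled. ELOVL6, which elongates palmitate, had 16.1 and 16.9 CPM with CSN5i-3 against 34.2 and 31.5 CPM with DMSO in LNCaP (-1.0 ± 0.087, edgeR adjusted p = 9.67e-05), 94.5 and 114 against 224 and 193 CPM in 22Rv1 (-1.0 ± 0.16, 0.00728) and 8.45 and 8.48 against 5.27 and 5.33 CPM in PC3 (0.68 ± 0.10, 7.31e-09). It fell in LNCaP and 22Rv1 and rose in PC3, with no overlap in any pair. C4-2 had 1.85 and 1.94 against 11.7 and 10.4 CPM as titled C5i and NT (-2.54 ± 0.16, edgeR adjusted p = 7.52e-08), and 22Rv1 with shCSN5 had 139 and 149.9 against 211 and 225 CPM (-0.59 ± 0.079, 0.000133). All 5 calls of ELOVL6 held when each library was left out. ACACA, the carboxylase that makes malonyl-CoA, was lower in LNCaP with CSN5i-3 (184 and 186 against 327 and 313 CPM, -0.79 ± 0.059, edgeR adjusted p = 4.58e-05) and in C4-2 as titled (179 and 178 against 448 and 478 CPM, -1.37 ± 0.068, 1.26e-08). ACACA was further called in 22Rv1 with shCSN5 (-0.25 ± 0.077), a call lost without some single library or in another fit. ELOVL5, the elongase of polyunsaturated chains, was lower in LNCaP with CSN5i-3 (173 and 181 against 379 and 355 CPM, -1.06 ± 0.064, edgeR adjusted p = 1.71e-05) and in 22Rv1 with shCSN5 (195 and 201 against 263 and 300.4 CPM, -0.51 ± 0.084, 0.000579). ELOVL5 was further called in C4-2 with shCSN5 (-0.33 ± 0.10), PC3 with CSN5i-3 (0.13 ± 0.030) and C4-2 as titled (-0.55 ± 0.074), though the call in C4-2 with shCSN5 did not hold without some single library or in another fit. ELOVL5 also lost its call in C4-2 with shCSN5 without the filter on low counts (edgeR adjusted p = 0.102). ELOVL7 rests on 26 and 36 counts with shCSN5 and 7 and 6 with scramble in PC3, where it was called higher (2.03 ± 0.38, edgeR adjusted p = 0.0254, lost at 0.0857 without shCSN5 replicate 2). ELOVL7 was further called in LNCaP with CSN5i-3 (0.30 ± 0.085), PC3 with CSN5i-3 (1.86 ± 0.29) and C4-2 as titled (-0.32 ± 0.095), though the calls in LNCaP with CSN5i-3 and C4-2 as titled did not hold without some single library or in another fit. ELOVL7 also lost its call in PC3 with shCSN5 with DESeq2 (its adjusted p = 0.0848) and LNCaP with CSN5i-3 with total counts (edgeR adjusted p = 0.105).

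FASN, the fatty acid synthase, differed widely between libraries of a group in the knockdown experiment. It had 244 and 823 CPM with shCSN5 against 1122 and 1089.5 CPM with scramble in LNCaP, 555 and 371 against 229 and 434 CPM in C4-2, 306 and 205 against 275 and 163 CPM in 22Rv1 and 65.8 and 104 against 51.3 and 115 CPM in PC3. The groups overlapped in C4-2, 22Rv1 and PC3, and no knockdown comparison passed the test. With CSN5i-3 it had 436 and 385 against 516 and 846 CPM in LNCaP (-0.73 ± 0.20, edgeR adjusted p = 0.0197, lost at 0.0855 without CSN5i-3 replicate 2), 307 and 110.0 against 349 and 764 CPM in 22Rv1 (-1.42 ± 0.54, 0.106) and 194 and 201 against 184 and 181 CPM in PC3 (0.11 ± 0.027, 0.000195). C4-2 had 291 and 336 against 847 and 561 CPM as titled C5i and NT (-1.17 ± 0.15, edgeR adjusted p = 2.97e-05). FASN also lost its call in LNCaP with CSN5i-3 with DESeq2 (its adjusted p = 0.0904).

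The desaturases included both the fatty acid gene called most often, SCD, and the member with the largest change, FADS2. SCD, which makes monounsaturated fatty acids, was called in all 8 comparisons. It had 1044 and 855 CPM with shCSN5 against 667 and 678 CPM with scramble in LNCaP, 996 and 1043 against 379 and 331 CPM in C4-2, 1100.5 and 1149.5 against 627 and 689 CPM in 22Rv1 and 185 and 181 against 130.4 and 125 CPM in PC3. All shCSN5 libraries were above the scramble libraries of their line. With the inhibitor it had 745 and 758 CPM with CSN5i-3 against 917 and 871 CPM with DMSO in LNCaP, 323 and 353 against 647 and 575 CPM in 22Rv1 and 145 and 145 against 69.6 and 66.8 CPM in PC3, and C4-2 had 244 and 231 CPM in the libraries titled C5i against 537 and 571 CPM in those titled NT. The treated libraries were lower in LNCaP and 22Rv1 and higher in PC3, with no overlap. The log2 fold changes with shCSN5 were 0.50 ± 0.13 in LNCaP, 1.52 ± 0.10 in C4-2, 0.77 ± 0.082 in 22Rv1 and 0.52 ± 0.089 in PC3 (edgeR adjusted p = 0.0305, 9.26e-05, 2.69e-05 and 0.0210). CSN5i-3 gave -0.25 ± 0.054 in LNCaP, -0.85 ± 0.14 in 22Rv1 and 1.09 ± 0.032 in PC3, and C4-2 as titled had -1.22 ± 0.068 (edgeR adjusted p = 0.00695, 0.00745, 4.98e-37 and 3.21e-08). The SCD call was lost in the knockdown comparison in LNCaP without either scramble library (edgeR adjusted p = 0.370 and 0.335), the knockdown comparison in PC3 without either shCSN5 library (edgeR adjusted p = 0.174 and 0.126) and the inhibitor comparison in LNCaP without either CSN5i-3 library (edgeR adjusted p = 0.105 and 0.0804).

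FADS1, a desaturase of the polyunsaturated pathway, had 76.5 and 64.5 CPM with shCSN5 against 241 and 238 CPM with scramble in LNCaP, 177 and 188 against 266 and 243 CPM in C4-2, 138 and 144 against 235 and 253 CPM in 22Rv1 and 164 and 159 against 156 and 142 CPM in PC3. It was lower in LNCaP, C4-2 and 22Rv1 and a little higher in both PC3 libraries. With the inhibitor it had 58.5 and 59.9 CPM with CSN5i-3 against 166 and 151 CPM with DMSO in LNCaP, 87.3 and 95.5 against 252 and 225 CPM in 22Rv1 and 136 and 146 against 118 and 119 CPM in PC3, and C4-2 had 48.8 and 49.1 CPM in the libraries titled C5i against 229.6 and 239 CPM in those titled NT. PC3 again stood apart in direction, with no overlap in any of these pairs. On the log2 scale shCSN5 gave fold changes of -1.77 ± 0.14 in LNCaP, -0.48 ± 0.095 in C4-2, -0.79 ± 0.077 in 22Rv1 and 0.12 ± 0.10 in PC3 (edgeR adjusted p = 0.000509, 0.00760, 1.36e-05 and 0.435). With CSN5i-3 they came to -1.42 ± 0.074 in LNCaP, -1.38 ± 0.14 in 22Rv1 and 0.24 ± 0.031 in PC3, and C4-2 as titled had -2.26 ± 0.076 (edgeR adjusted p = 8.62e-06, 0.00166, 4.71e-10 and 6.17e-10). A left-out library ended the FADS1 call in the knockdown comparison in C4-2 without shCSN5 replicate 1 (edgeR adjusted p = 0.0835).

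FADS2, the desaturase of the preceding step, was lower in 5 comparisons, all of which held when each library was left out. It had 233 and 304 CPM with shCSN5 against 1196 and 1246 CPM with scramble in LNCaP (-2.19 ± 0.16, edgeR adjusted p = 0.000393), and its groups overlapped in C4-2, 22Rv1 and PC3 with shCSN5. With CSN5i-3 it had 244 and 235 against 733 and 769 CPM in LNCaP (-1.65 ± 0.059, edgeR adjusted p = 1.74e-06), 32.1 and 22.4 against 85.5 and 101 CPM in 22Rv1 (-1.77 ± 0.22, 0.00298) and 177 and 185 against 239 and 235 CPM in PC3 (-0.39 ± 0.027, 1.38e-19). C4-2 had 104 and 111 against 1269 and 1199.7 CPM as titled C5i and NT, the largest change of any member (-3.52 ± 0.072, edgeR adjusted p = 2.44e-11). FADS1 and FADS2 share exon sequence with each other, and FADS2 shares some with FEN1 on the same strand. FEN1, a DNA replication nuclease, was lower in all 8 comparisons, from -0.84 in 22Rv1 with shCSN5 to -4.35 in C4-2 as titled, and its part in the FADS2 counts was not tested.

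Whether lines responded differently was tested for the pairs that share a knockdown table. The effect of shCSN5 in PC3 minus that in LNCaP was higher for 10 and lower for 6 of the 36 genes, against 11% and 13.1% of all genes tested. FADS2, FADS1 and SREBF2 gave differences of 1.98 ± 0.26 (edgeR adjusted p = 0.00143), 1.82 ± 0.15 (edgeR adjusted p = 0.000167) and 1.42 ± 0.21 (edgeR adjusted p = 0.00227). SREBF2 was the member called in opposite directions, 0.68 in PC3 and -0.81 in LNCaP. NPC1 and HMGCS1 had the opposite sign, -1.44 ± 0.12 (edgeR adjusted p = 0.000194) and -1.21 ± 0.21 (edgeR adjusted p = 0.00528). The effect in 22Rv1 minus that in C4-2 was higher for 0 and lower for 7 genes, against 5.53% and 7.76%. INSIG2 was -0.39 in 22Rv1 and 1.27 in C4-2, a difference of -1.68 ± 0.16 (edgeR adjusted p = 0.000365), and SCD rose in both but less in 22Rv1, by -0.77 ± 0.10 (edgeR adjusted p = 0.00222). With total counts in place of TMM, 4 members differed between 22Rv1 and C4-2, in place of 7, beside 2243 of all 17014 genes.

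Whether CSN5i-3 and shCSN5 had different effects was tested in the 3 lines with labelled inhibitor libraries, in tables counted separately, so that experiment and project cannot be told apart. In PC3 the inhibitor effect was higher than the knockdown effect for 14 genes and lower for 8, against 20.5% and 18.6% of all genes tested. INSIG1 and HMGCS1 differed there by 1.85 ± 0.14 (edgeR adjusted p = 0.000109) and 1.24 ± 0.16 (edgeR adjusted p = 0.000803), and TM7SF2 by -1.42 ± 0.29 (edgeR adjusted p = 0.00682). LNCaP had 2 higher and 4 lower, against 6.83% and 14.5%, and 22Rv1 had 0 and 5, against 2.38% and 1.9%. SCD rose with shCSN5 and fell with CSN5i-3 in both lines, a difference of -0.84 ± 0.16 (edgeR adjusted p = 0.00705) in LNCaP and -1.61 ± 0.14 (edgeR adjusted p = 0.00295) in 22Rv1. INSIG1 did the same in 22Rv1, with a difference of -1.30 ± 0.14 (edgeR adjusted p = 0.00497). ACACA and ELOVL5, which did not pass the test with shCSN5 in LNCaP, differed there by -1.0 ± 0.16 (edgeR adjusted p = 0.00359) and -1.26 ± 0.15 (edgeR adjusted p = 0.00139).

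**Figure D4:**
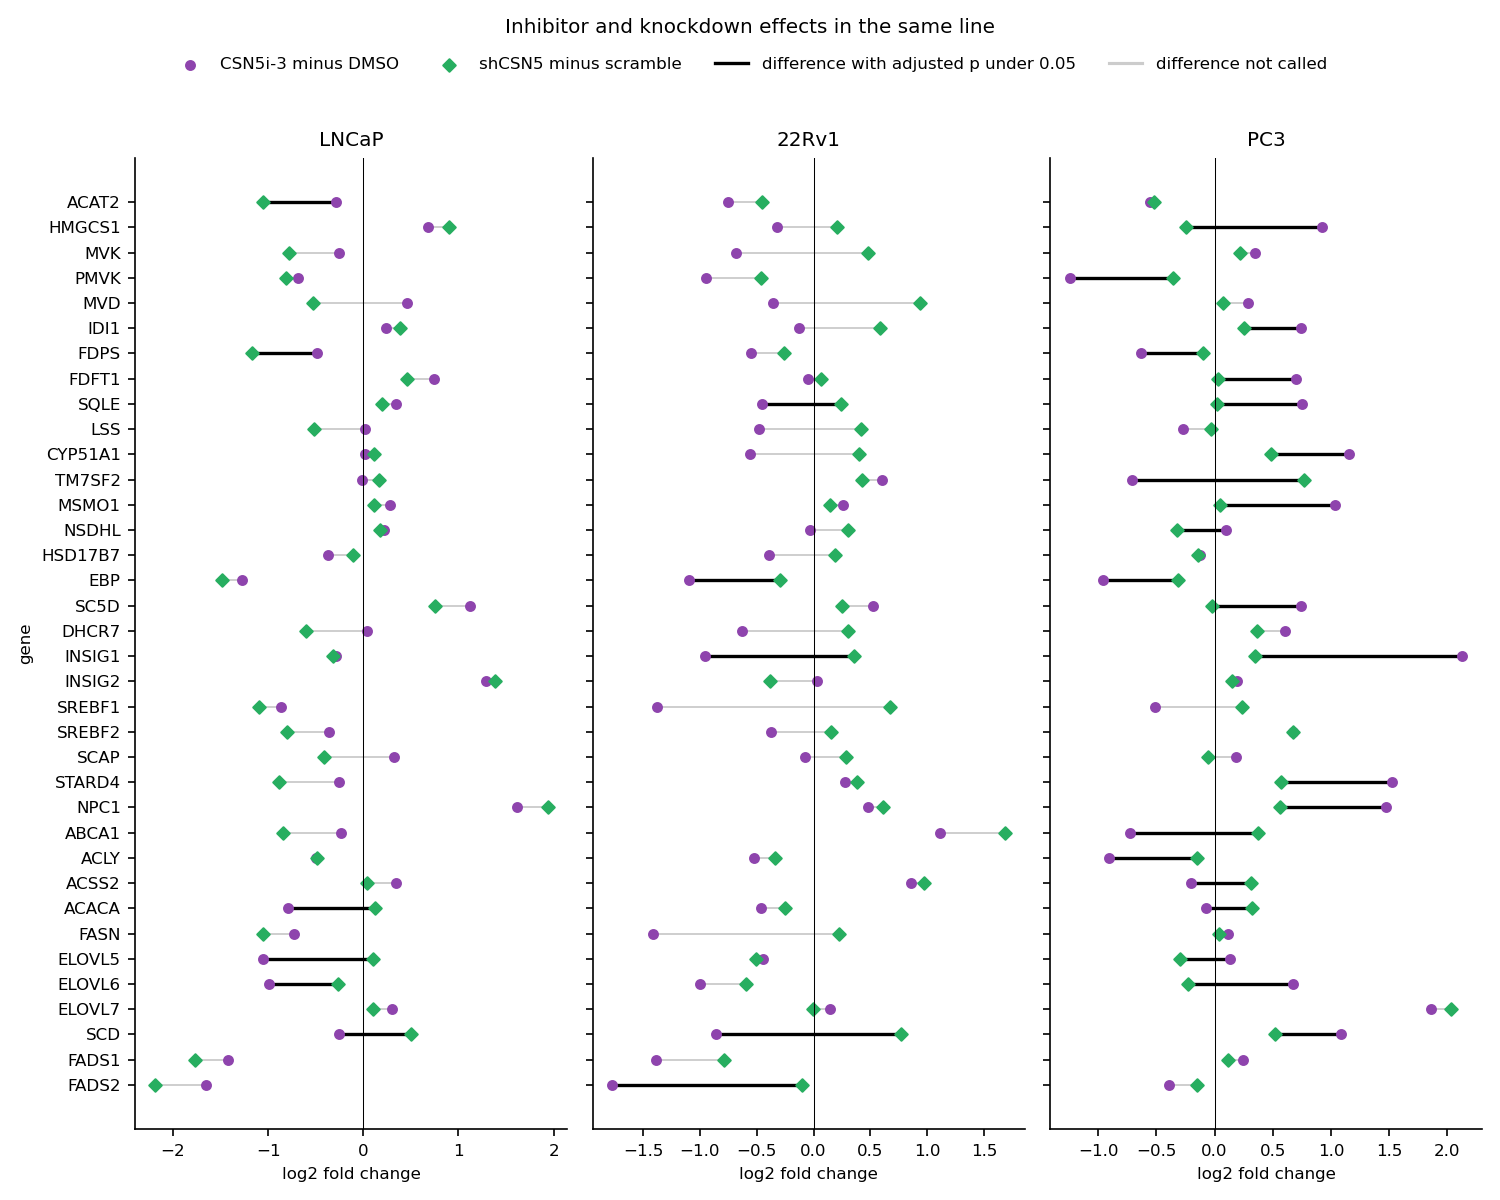
Log2 fold changes with CSN5i-3 and with shCSN5 for the 36 genes in LNCaP, 22Rv1 and PC3, with a mark where their difference was called. SCD is above 0 with shCSN5 and below 0 with CSN5i-3 in LNCaP and 22Rv1. INSIG1 in PC3 is far higher with CSN5i-3 than with shCSN5.

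Averaged over the 4 lines, 10 of the 36 genes were higher and 8 lower with shCSN5, against 19.5% and 14.7% of all genes tested. NPC1 had an average log2 fold change of 1.13 ± 0.16 (edgeR adjusted p = 7.62e-05) and SCD of 0.84 ± 0.13 (edgeR adjusted p = 0.000150). ACAT2 and EBP averaged -0.58 ± 0.10 (edgeR adjusted p = 0.000449) and -0.65 ± 0.14 (edgeR adjusted p = 0.00223). Without the C4-2 libraries 11 members were called, beside 4481 of all 18438 genes tested. Averaged over LNCaP, 22Rv1 and PC3, 4 were higher and 10 lower with CSN5i-3, against 15.4% and 15%. NPC1 and SC5D averaged 1.21 ± 0.16 (edgeR adjusted p = 0.000293) and 0.81 ± 0.11 (edgeR adjusted p = 0.000262), and EBP and PMVK -1.10 ± 0.079 (edgeR adjusted p = 6.70e-06) and -0.94 ± 0.13 (edgeR adjusted p = 0.000355).

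Genes next to these pathways are given by their counts beside the shares of all genes called. Of 14 other sterol and SREBP genes, shCSN5 gave 2 higher and 3 lower of 14 tested in LNCaP, 3 and 4 of 14 in C4-2, 5 and 5 of 14 in 22Rv1 and 1 and 1 of 13 in PC3. CSN5i-3 gave 4 higher and 4 lower of 14 in LNCaP, 1 and 2 of 14 in 22Rv1 and 6 and 4 of 13 in PC3, and C4-2 as titled gave 4 and 7 of 14. The shares of all genes, higher and lower, were 18.3% and 17.4%, 15.7% and 16.2%, 22.6% and 21.3% and 10.3% and 6.41% with shCSN5 in that order, 26.2% and 26.5%, 11.8% and 12.2% and 38.5% and 38.5% with CSN5i-3, and 37% and 37.9% in C4-2 as titled. TMEM97, a membrane protein that binds NPC1, was lower with shCSN5 in all 4 lines, by -1.05, -0.78, -0.42 and -0.56 (log2, LNCaP, C4-2, 22Rv1, PC3). It was also lower with CSN5i-3 in LNCaP at -1.36 and 22Rv1 at -1.18, while NPC1 was higher in these comparisons or, in 22Rv1, above its control. TMEM97 was -0.16 in PC3 with CSN5i-3, short of the test, and -2.67 in C4-2 as titled. LBR, a sterol reductase of the nuclear envelope, was -0.95, -0.46 and -0.87 with shCSN5 in LNCaP, C4-2 and 22Rv1, and 0.33 with CSN5i-3 in PC3, where it was called higher. LBR was also lower with CSN5i-3 in LNCaP at -1.47 and 22Rv1 at -1.07 and in C4-2 as titled at -1.10. FAXDC2 was higher in every comparison in which it was tested, at 3.60, 1.5 and 1.19 with shCSN5 in LNCaP, C4-2 and 22Rv1, and 2.99 and 2.24 with CSN5i-3 in LNCaP and 22Rv1, and at 1.81 in C4-2 as titled, with PC3 not tested.

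Of 22 other fatty acid genes, shCSN5 gave 6 higher and 7 lower of 21 tested in LNCaP, 5 and 3 of 21 in C4-2, 5 and 4 of 19 in 22Rv1 and 1 and 2 of 20 in PC3. With CSN5i-3 the counts were 5 higher and 12 lower of 20 in LNCaP, 2 and 3 of 19 in 22Rv1 and 7 and 11 of 20 in PC3, and 4 and 11 of 20 in C4-2 as titled, beside the same shares of all genes (18.3% and 17.4% in LNCaP, 15.7% and 16.2% in C4-2, 22.6% and 21.3% in 22Rv1 and 10.3% and 6.41% in PC3 with shCSN5, 26.2% and 26.5%, 11.8% and 12.2% and 38.5% and 38.5% with CSN5i-3 and 37% and 37.9% in C4-2 as titled). ELOVL2, an elongase of very long polyunsaturated chains, was -1.35, -1.61 and -1.26 with CSN5i-3 in LNCaP, 22Rv1 and PC3, lower in each. GPAM, the first enzyme of glycerolipid synthesis, was -0.79, -0.66 and -0.53 in the same comparisons, again lower in each. Both were also lower with shCSN5 in LNCaP, C4-2 and 22Rv1 and in C4-2 as titled. Of 6 sterol export genes linked to the oxysterol receptor LXR, shCSN5 gave 3 higher and 1 lower of 5 tested in LNCaP, 2 and 1 of 6 in C4-2, 4 and 1 of 6 in 22Rv1 and 1 and 0 of 5 in PC3, and CSN5i-3 gave 1 and 2 of 6, 0 and 1 of 6 and 3 and 2 of 6 in LNCaP, 22Rv1 and PC3, with 2 and 2 of 6 in C4-2 as titled, few genes to set beside those shares. ABCG1, a sterol exporter, was higher with shCSN5 in all 4 lines, at 0.80, 1.37, 1.19 and 1.35, and lower with CSN5i-3 in PC3 at -0.26 but higher in LNCaP at 0.41, and 1.95 in C4-2 as titled.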

How the data were processed

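RNA-seq libraries of 4 prostate cancer lines were analysed from 6 tables of gene counts that the authors deposited. The authors' counts are raw whole numbers per gene, made with Partek per the submitters' processing notes; the aligner, genome build, annotation and use of strand were not given in the sources used here. Set aside was the 1 row without a gene name in the C4-2 inhibitor table. CPM was computed from library totals over the genes that passed the low-count filter, scaled by TMM. Each comparison of 2 groups was fitted with edgeR 4.0.16 (TMM, filterByExpr with a minimum count of 10, quasi-likelihood F test, Benjamini-Hochberg adjustment over all genes tested, called under 0.05) in R 4.3.3, differences between effects were tested as interaction terms in tables joined by gene, and averages with line as a covariate. The SE was taken as the absolute log2 fold change over the root of the F statistic. The fit was tested on simulated data. Alternatives were DESeq2 1.42.0, total counts, no filter, a replicate block, a shared spread, other class memberships and each library left out. Exon overlaps were read from GENCODE and promoters from RefSeq GRCh38.p14.

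The members and lists were chosen with earlier results of these data known. Values in every library are given for the 4 cholesterol, 4 fatty acid and 3 regulator or transport genes called in most comparisons, and for others named beside them; further genes are those with the smallest adjusted p of their class in a comparison, and some, SC5D, HMGCS1, FASN, FADS2, TMEM97, LBR, FAXDC2, ELOVL2, GPAM and ABCG1 among them, were chosen or given for all comparisons after their values were seen.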

Additional observations from a re-analysis of the deposited data

Results flagged for a closer look

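The sterol and fatty acid genes listed here were singled out because the effect of the treatment itself differed between 2 lines or between inhibitor and knockdown, by an interaction term in edgeR with adjusted p under 0.05 over all genes tested. Values are differences of log2 fold changes. For shCSN5 in PC3 minus LNCaP, the difference was above 0 for FDPS at 1.01, EBP at 1.11, DHCR7 at 0.91, INSIG1 at 0.61, SREBF2 at 1.42, STARD4 at 1.40, ABCA1 at 1.16 and ELOVL7 at 1.87. It was also above 0 for FADS1 at 1.82 and FADS2 at 1.98. It was below 0 for HMGCS1 at -1.21, FDFT1 at -0.49, NSDHL at -0.56, SC5D at -0.84, INSIG2 at -1.29 and NPC1 at -1.44.

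For shCSN5 in 22Rv1 minus C4-2, the difference was below 0 for FDFT1 at -0.71, INSIG1 at -0.46, INSIG2 at -1.68, NPC1 at -0.76, ACACA at -0.34, SCD at -0.77 and FADS1 at -0.34.

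For CSN5i-3 minus shCSN5 in LNCaP, the difference was above 0 for ACAT2 at 0.67 and FDPS at 0.59. It was below 0 for ACACA at -1.0, ELOVL5 at -1.26, ELOVL6 at -0.83 and SCD at -0.84.

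For CSN5i-3 minus shCSN5 in 22Rv1, the difference was below 0 for SQLE at -0.67, EBP at -0.79, INSIG1 at -1.30, SCD at -1.61 and FADS2 at -1.66.

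For CSN5i-3 minus shCSN5 in PC3, the difference was above 0 for HMGCS1 at 1.24, IDI1 at 0.56, FDFT1 at 0.74, SQLE at 0.80, CYP51A1 at 0.74, MSMO1 at 1.06, NSDHL at 0.48 and SC5D at 0.84. It was also above 0 for INSIG1 at 1.85, STARD4 at 1.03, NPC1 at 0.98, ELOVL5 at 0.50, ELOVL6 at 0.97 and SCD at 0.64. It was below 0 for PMVK at -0.82, FDPS at -0.47, TM7SF2 at -1.42, EBP at -0.58, ABCA1 at -1.03, ACLY at -0.69, ACSS2 at -0.45 and ACACA at -0.33.

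The members called in opposite directions by the 2 effects compared were SREBF2 between PC3 and LNCaP, INSIG2 between 22Rv1 and C4-2, SCD between inhibitor and knockdown in LNCaP and 22Rv1, and INSIG1 between them in 22Rv1. The inhibitor and knockdown libraries come from separate count tables, so a difference between the experiments and one between the projects cannot be told apart.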

How the results depend on the processing

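Calls of single members under the alternatives kept their direction and their side of the threshold in 271 of 288 cases with DESeq2, 266 with total counts in place of TMM and 267 without the filter on low counts, and in 130 of 144 with a spread shared by the 8 libraries of a knockdown table. Leaving out 1 library, 119 of 1152 cases lost their call and 79 gained one; the lone library of a group was then assumed to vary like the other group. Of these cases 4 changed sign and passed the test: CYP51A1 at -0.45 and TM7SF2 at -0.23 in LNCaP without shCSN5 replicate 2, FASN at -0.43 in PC3 without scramble replicate 1, and TM7SF2 at 0.16 in LNCaP without DMSO replicate 2, none of which was called with all libraries. Over the left-out libraries these log2 fold changes ranged from -0.45 to 0.52 and -0.23 to 0.48 in LNCaP and -0.43 to 0.67 in PC3 with shCSN5, and -0.17 to 0.16 in LNCaP with CSN5i-3. The number of members called ranged over the left-out libraries from 8 to 33 in LNCaP, 9 to 16 in C4-2, 16 to 29 in 22Rv1 and 0 to 12 in PC3 with shCSN5, and from 15 to 32 in LNCaP and 10 to 23 in 22Rv1 with CSN5i-3. Without the filter it was 8 in PC3 with shCSN5 and 21 in 22Rv1 with CSN5i-3. Total counts gave 4 for 22Rv1 minus C4-2, and the average of shCSN5 without the C4-2 libraries gave 11. The causes were not tested.

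The difference between the cholesterol and fatty acid medians ranged over the left-out libraries from -0.37 to 0.27 in LNCaP and -0.22 to 0.0054 in PC3 with shCSN5, 0.78 to 0.84 in LNCaP and 0.15 to 0.24 in PC3 with CSN5i-3, and 0.73 to 0.86 in C4-2 as titled. Without ACLY and ACSS2 it was 0.92 in LNCaP, 0.50 in 22Rv1, 0.13 in PC3 and 0.94 in C4-2 as titled, and with sensors, SREBP factors and STARD4 among the cholesterol genes it was -0.25 in LNCaP with shCSN5.

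Replicate numbers are shared by the groups, but nothing in the labels pairs them, and the correlation of same-numbered deviations was -0.04, -0.38, 0.303 and 0.542 with shCSN5 in LNCaP, C4-2, 22Rv1 and PC3, -0.095, -0.642 and -0.001 with CSN5i-3 in LNCaP, 22Rv1 and PC3, and -0.131 in C4-2 as titled. With the replicate number as a block, 22 members were called in PC3 with shCSN5, 14 higher and 8 lower. Of all 15465 genes tested there, 4443 were higher and 3737 lower. The average of CSN5i-3 had 9 members called, 2 higher and 7 lower, beside 1290 and 1463 of 18918 genes. For 22Rv1 minus C4-2 it was 4 members, beside 1237 of 17014 genes. Inhibitor minus knockdown gave 0 members in 22Rv1, beside 19 of 17039 genes. In LNCaP it gave 0 higher and 4 lower, beside 951 and 1859 of 17846 genes. C4-2 with shCSN5 had 9 higher and 3 lower, beside 1716 and 1827 of 14874 genes. With CSN5i-3, 22Rv1 had 1 and 9, beside 1420 and 1473 of 16739 genes. No other total of members called moved by more than 1.5 times under the block.

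Over all genes, total counts gave 1969 higher and 702 lower in PC3 with shCSN5, against 1586 higher and 992 lower with TMM and 1105 higher and 1163 lower with DESeq2, and 2482 higher and 1578 lower for PC3 minus LNCaP, 1298 higher and 945 lower for 22Rv1 minus C4-2, 357 higher and 448 lower for inhibitor minus knockdown in 22Rv1 and 2469 higher and 3898 lower in PC3. The 2 libraries per group and 2 residual degrees of freedom limit which changes could be called, and ABCA1 and ELOVL7 rest on few counts in some lines.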
